A study of Mus musculus with 419 samples.

Results

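Nanog was followed as a single gene through 419 single mouse embryonic stem cells: it is 1 of 35171 genes with a value in the deposited allele tables and takes 3 of their 117762 transcript rows. Its rows were found by gene symbol in the GENCODE vM21 annotation (gene ENSMUSG00000012396, plus strand, chr6:122707489-122714633 on mm10), and no measured value entered the choice. All cells belong to 1 group, taken in G1 from the female hybrid line F1-21.6, whose chromosome sets come from 129Sv and Cast/EiJ mice. The line was kept on laminin-511 with no feeder layer, in a serum medium with leukemia inhibitory factor (LIF). RNA was read with RamDA-seq, which covers total RNA along whole transcripts, and the study's question was how genes burst on each allele. The labels name no separate cultures of this single line, so the 419 cells count as 1 sample and no p-value was made from them. A spread over the 5 sequencing lanes (80 to 88 cells each) is given instead and may be technical.

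Nanog is a homeodomain transcription factor of the pluripotent epiblast and of embryonic stem cells. It works with Oct4, the product of Pou5f1, and with Sox2 on many shared regulatory regions, and it holds stem cells in self-renewal when LIF signalling is weak. In serum medium its protein is known to differ strongly between neighbouring cells, together with other factors of the naive state.

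The 3 Nanog rows share most of their sequence, and the parts that set them apart are shown here because the row values below turn on them. Nanog-203 starts at the upstream site, 122707489 on chromosome 6, with a first exon of 28 bases. Nanog-202 starts downstream of it, at 122707565, with a first exon of 44 bases, and both have 5 exons and the start codon at 122707858. Nanog-201 starts at 122707568, has 4 exons, and runs through bases that are intronic in the other rows. Its start codon lies at 122707783, so its reading frame is longer by 75 bases, or 25 codons. The first line gives the bases before the upstream start (RefSeq, GRCm38.p6, plus strand, chr6:122707239-122707488), with capitals marking a composite Oct and Sox element. The second line gives the first 29 coding bases of Nanog-201 from the GENCODE transcript (chr6:122707783-122707811), with capitals marking its start codon.
Nanog promoter: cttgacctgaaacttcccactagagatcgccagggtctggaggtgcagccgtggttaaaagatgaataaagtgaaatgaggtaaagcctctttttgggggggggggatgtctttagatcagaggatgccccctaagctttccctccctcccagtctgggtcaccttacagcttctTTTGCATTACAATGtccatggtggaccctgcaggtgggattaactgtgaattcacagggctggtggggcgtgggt
Nanog-201 coding start: ATGagtgtgggtcttcctggtccccacag
The element is the classic site for Oct4 with Sox2 at Nanog. It spans chr6:122707414-122707427 and ends 61 bases before the upstream start and 140 bases before the downstream start of Nanog-201. The letters TTTGCATNACAATG, searched on both strands, occur in 2 of 32851 RefSeq windows of 250 bases before a start (0.00609%), and both are overlapping windows of Nanog itself, 1 for each of its starts. The string is the form found at Nanog, so the Nanog match was given in advance. Variants of the element at other genes were not searched. The Oct part alone, TTTGCAT, occurs in 4.13% of windows and the Sox part alone, ACAATG, in 10.7%. The Nanog window holds each on the plus strand only, and both matches lie inside the composite element.

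Before the Nanog values, 33 cells (7.88% of 419, between 5 and 9 in each lane) stand apart from the label of embryonic stem cell. In them Pou5f1 lies below 92.0, which is its median of 276 divided by 3, in the authors' scaled units used for all levels below. This limit was set after the data were seen: the highest Pou5f1 value below it was 91.2 and the lowest above it 98.1. The pluripotency genes were low in these cells: the median of Sox2 was 2.01 against 60.8 in the other 386 cells, and that of Zfp42, also called Rex1, was 19.0 against 260. The median was lower in the 33 cells for all 17 genes of the naive list and all 12 of the core list, which includes Pou5f1 itself. Krt8, a simple-epithelium keratin, had a median of 1666 in the 33 cells and 4.30 in the rest, and Tagln, an actin-binding protein of smooth muscle, 217 and 2.05. Of 11 trophectoderm markers, 5 had a higher and 3 a lower median in the 33 cells, and their summed level ran from 100 to 13977 (median 2729), against 12.7 to 3516 (median 111) in the rest. Of 13 fibroblast markers, 6 were higher and 3 lower by median, and the sum ran from 175 to 30581 (median 1172), against 170 to 6767 (median 826). Of 16 primitive endoderm genes, 7 were higher and 4 lower by median, with a median sum of 1662 against 1118. Of 10 p53 pathway genes, 8 were higher and 2 lower, with a median sum of 1699 against 1005. Of 8 mesendoderm markers 0 were higher and 1 lower by median, and the sum ran from 0 to 176 (median 3.90), against 0 to 118 (median 6.73). Among them Cer1 and Mesp1 were at 0 in all 33 cells, but only 32 and 6 of all 419 cells held a value for them. The share of all genes with a higher or lower median in the 33 cells was not computed. These list counts therefore have no background beside them and are not read as particular to the lists. The cells are given no type name here, and the main values, the list counts, the named extremes and the neighbours are given with and without them. The remaining 386 cells had every core and naive marker at a median above 0. The number of rows above 0 was alike in both sets, with medians of 44462 and 44649.

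Nanog itself was high on average and varied widely between cells. The level summed over both alleles and all rows, with each cell scaled to a common total, was 262 ± 200 (SD over 419 cells). The lowest value was 0, the median 253 and the highest 1043, with quartiles of 90.6 and 376.1. Lane means ran from 245.2 to 297.1 (SD over 5 lanes 20.3). Only 10 cells held no Nanog value, and a further 66 lay above 0 but below 50. Another 31 cells lay from 50 up to 100, 62 from 100 to 200, 91 from 200 to 300, 64 from 300 to 400, 72 from 400 to 600 and 23 at 600 or more. These ranges differ in width: per unit of level, cells were densest below 50, with 76 cells in all, and thinner from 50 to 200. This low range held 49 cells once the 33 cells low in Pou5f1 were left out. The 42 highest cells held 25.4% of all Nanog signal.

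Part of the low tail consists of cells low in Pou5f1. Of the 76 cells below 50 for Nanog, 27 were among the 33 cells described above, as were 7 of the 10 cells at 0. In those 33 cells Nanog ran from 0 to 165 with a median of 2.91. In the other 386 it ran from 0 to 1043 with a median of 264 and a mean of 283. The ranges overlap, and 49 cells with Pou5f1 at or above 92.0 still had Nanog below 50.

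**Figure D1:**
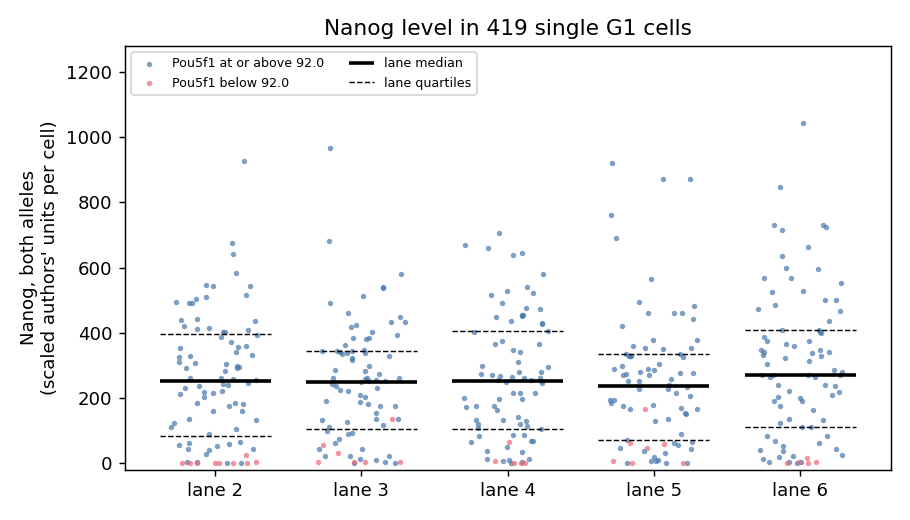
Nanog level over both alleles (y axis, scaled authors' units) in each of 419 cells, by sequencing lane (x axis), with lane medians as solid and quartiles as dashed lines. Each lane spans from near 0 to 707 or more, the lane medians lie between 237 and 272, and the 33 cells with low Pou5f1 (red) lie at 165 or below.

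The level of Nanog per kilobase of transcript placed it among the abundant pluripotency factors. It was 128 ± 9.79 per kb (SD over 5 lanes). Pou5f1 was higher at 319 ± 26.8, with lane values that do not overlap those of Nanog. Sall4, a zinc-finger partner of Nanog, was at 153 ± 15.0, Zfp42 at 140 ± 9.10 and the nuclear receptor Esrrb at 138.4 ± 7.73. The lane ranges of these 3 overlap that of Nanog, which ran from 120 to 145 per kb, so their order is not resolved. Tfcp2l1, a LIF target, followed at 54.5 ± 2.53, Klf4 at 30.1 ± 1.92, Sox2 at 29.0 ± 2.09, Tbx3 at 22.1 ± 0.716 and Klf2 at 17.1 ± 2.05. Otx2, a factor of the formative state, was at 4.46 ± 0.464, Prdm14 at 4.35 ± 1.25 and Gata6, which directs primitive endoderm, at 0.155 ± 0.0659. Neighbours in this order whose lane ranges overlap are Klf4 with Sox2 and Otx2 with Prdm14. Relative to its mean Nanog varied more than Pou5f1: the squared coefficient of variation over cells was 0.583 for Nanog and 0.149 for Pou5f1. Among the factors of similar level it was 0.139 for Sall4, 0.364 for Zfp42 and 0.330 for Esrrb. Only the less abundant Tbx3 (0.814), Prdm14 (2.42), Otx2 (3.46) and Gata6 (10.9) had higher values among these 13 genes. In the 386 cells with Pou5f1 at or above 92.0 Nanog was at 138.2 ± 9.63 per kb (SD over 5 lanes) with a squared coefficient of variation of 0.475, and Zfp42 had 0.278, Esrrb 0.247 and Sall4 0.0997.

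The 3 rows carried unequal parts of the signal. Nanog-203 held 55.0% of the 129 signal and 64.6% of the CAST signal, Nanog-201 held 31.02% and 18.69%, and Nanog-202 the remaining 14.0% and 16.7%. Nanog-202 followed Nanog-203 at a nearly fixed ratio. Where Nanog-203 was at least 20, the ratio of Nanog-202 to Nanog-203 had a median of 0.227 over 320 cells in the 129 table, and 300 of these cells lay between 0.18 and 0.28. In the CAST table the median was 0.228 over 321 cells, with 301 in that range. Of the 31-base words of Nanog-202, 1.61% are in no other Nanog row, and for Nanog-203 the share is 1.37%. The division between these rows was therefore not read as 2 separate measurements. Nanog-201 has 232 such words of its own, or 10.6%.

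The share of Nanog-201 differed between the alleles. Over the 318 cells with at least 25 from each allele, its median share was 28.4% of the 129 signal and 15.6% of the CAST signal, and 99 cells had at most 5% of their CAST signal in this row, against 41 for 129. The 129 share was higher in every lane, at 28.1% to 34.5% against 16.2% to 22.6%. Within a cell the shares on the 2 alleles ran against each other, with a Spearman rho of -0.37 over 318 cells. With the alleles summed the share had a median of 23.8% and an SD over cells of 11.1 percentage points, less than the 21.4 and 17.9 of the single alleles. The level of Nanog-201 from 129 ran more closely with Nanog-203 from CAST (rho 0.66) than with Nanog-201 from CAST (rho 0.23). These points share their cells, and the way reads were divided between alleles and rows is not stated in the labels or file headers.

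The annotated copies of Nanog had almost no values of their own. The pseudogene Nanog-ps2 on chromosome 12 was at 0 in both tables. Nanog-ps1 on chromosome X held a deposited sum of 6 in 5 cells of the CAST table, and the 129 table holds only 0 for chromosome X. Of the 31-base words of Nanog-201, 239 (11.0%) also occur in transcripts of other genes, 103 of them in Nanog-ps1, so part of the gene cannot be told from copies or repeats by sequence alone, and how many reads of copies were placed on Nanog was not measured.

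The alleles contributed equally over all cells. The 129 allele had a mean of 133.5 ± 107.7 (SD over 419 cells, median 125, highest 599) and the CAST allele 129 ± 105 (median 112, highest 634). The pooled 129 share was 50.9% and ran from 49.7% to 53.0% in the lanes (SD 1.28), a range that includes equality. Of the 409 cells with a value, 34 had CAST only, 3 had 129 only and the rest had both. Cells with a single allele thus made up 37 of 409, or 9.05% (exact binomial 95% interval 6.45% to 12.3%, for counting error only). Alleles seen independently of each other at these rates would give 13.0%. The cells with CAST alone held little Nanog, with a median of 2.18 and a highest value of 56.4, and the 3 cells with 129 alone reached at most 10.9. Whether the imbalance of 34 to 3 lies in the cells or in how low values were assigned to alleles was not tested. Leaving out the 33 cells low in Pou5f1 gave 5.48%.

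In cells with more Nanog the split was moderate. Of 343 cells with at least 50, 180 (52.5%) had a 129 share between 40% and 60%. The median share was 51.4%, the quartiles 41.7% and 60.3% and the SD 15.0 percentage points. At the edges, 11 cells were at or below 20% and 10 at or above 80%, and the whole range ran from 0% to 92.0%. With at least 200 in a cell (250 cells), the SD was 12.5 percentage points and 8 cells passed either edge. A cell that read Nanog mostly from 1 allele was therefore uncommon on both sides.

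Cells high on 1 allele were high on the other. The Spearman rho of the 129 and CAST values was 0.79 over 419 cells and 0.75 to 0.83 within the lanes. Splitting the variation gave an intrinsic part, where the alleles differ within a cell, of 0.152 (lanes 0.137 to 0.164), and a shared part, where they move together between cells, of 0.506 (lanes 0.453 to 0.582), both as squared coefficients of variation. The shared part was 76.9% of their sum. In the 386 cells with Pou5f1 at or above 92.0 the shared part was 0.404, or 74.2%, the intrinsic part 0.140 and the rho 0.74.

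**Figure D2:**
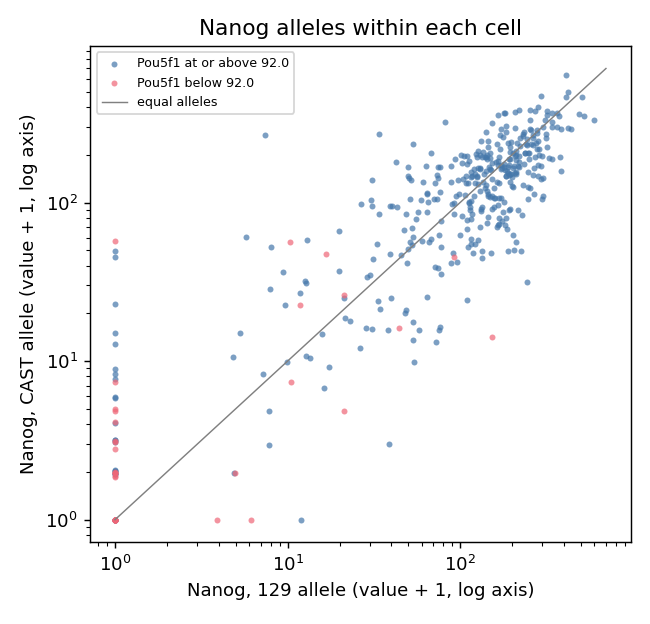
Nanog from the 129 allele (x axis) and the CAST allele (y axis), both as value + 1 in scaled authors' units on log axes, 1 point per cell, with the line of equal alleles. The cloud follows the line (Spearman rho 0.79), and 34 cells lie on the left edge with no 129 value against 3 with no CAST value.

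Genes of like level did not in general show this agreement. Among the 200 genes nearest to Nanog in mean (219 to 313), the median rho between alleles was 0.08 and 2 genes were above Nanog. The median shared part was 0.0139, with 1 gene above Nanog, while the median intrinsic part was 0.124, with 70 above. With the 33 cells low in Pou5f1 left out, 3 of the 200 were above Nanog in rho and 1 in the shared part. So with its rows summed the intrinsic variation of Nanog was ordinary for its level and the shared variation was at the top. With the most abundant row alone the intrinsic part was 0.269 and the shared part 0.488. That row had a level of 157, for which the nearest genes were not examined. Over all 7411 autosomal genes with both alleles measured, 76 (1.03%) had a higher rho and 543 (7.33%) a higher shared part. A rho below 0 was common, in 4664 genes (62.9%).

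Some genes hold nearly the same value on both alleles in most cells, so the share of cells whose alleles differed by at most 10% of their sum is given for each gene below. For Nanog it was 26.7% of the cells with a value, while for Pou5f1 it was 96.2% beside a rho of 0.87. Of the 76 genes above Nanog in rho, 27 were alike in under 50% of cells. A low share does not show that alleles vary apart, since a fixed unequal split also gives it. Gm13461, with a 129 share of 29.2%, had a rho of 0.98 and alleles alike in 0% of cells. Among the 27 was Tfcp2l1, with a rho of 0.80, alleles alike in 16.5% of cells and a 129 share of 62.5%. Another was Peg10, an imprinted retrotransposon-derived gene, with 0.88, 18.6% and 40.4%. Other regulators of this network gave 0.78 for the methyltransferase Dnmt3b, 0.74 for the T-box factor Tbx3, 0.62 for the methylcytosine dioxygenase Tet2 and 0.57 for Zfp42. Esrrb, which was read mostly from CAST (129 share 23.0%), gave 0.47, Sall4 0.46, Klf4 0.45, Fgf4 0.37 and Sox2 0.15. The shares of cells with like alleles were 31.3% for Dnmt3b, 21.8% for Tbx3, 28.2% for Tet2 and 25.3% for Zfp42. They were 10.2% for Esrrb, 37.1% for Sall4, 19.3% for Klf4, 20.2% for Fgf4 and 11.5% for Sox2.

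**Figure D3:**
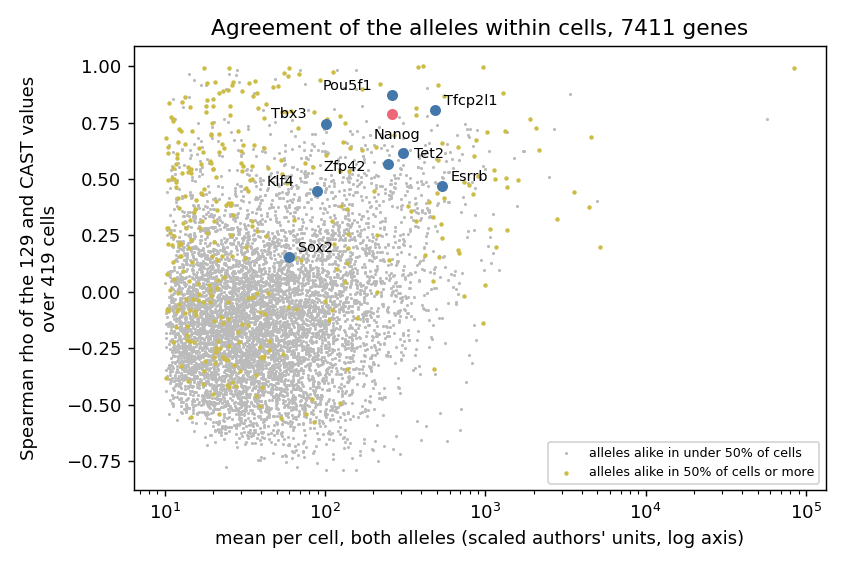
Spearman rho between the 129 and CAST values over 419 cells (y axis) against mean level (x axis, scaled authors' units, log axis) for 7411 genes. Nanog (red, 0.79) lies above nearly all genes of its level, near Tfcp2l1 and Tbx3 (blue), and yellow points are genes such as Pou5f1 whose alleles are alike in 50% of cells or more.

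Many genes varied with Nanog. Of 12344 genes tested, 1767 (14.3%) had a Spearman rho with Nanog of at least 0.2 over the 419 cells, written below as higher with Nanog, and 1401 (11.3%) a rho of -0.2 or less, written as lower. Over the 1633 genes averaging 100 or more the shares were 31.2% and 11%, so abundant genes passed the limit more often. The sign was the same in all 5 lanes for 3096 of the 3168 genes past the limit. Leaving out the 33 cells low in Pou5f1, 934 genes (7.57%) were higher and 730 (5.91%) lower, and 872 and 621 of these were among the genes called with all cells. For this smaller set of cells the shares over genes averaging 100 or more were not computed. List counts without the 33 cells therefore stand beside shares of all genes only, which may be too low for lists of abundant genes. The rho values are descriptions over cells that share library, lane and scaling. The rho of Nanog itself was -0.11 with the cell total, -0.02 with the number of rows above 0, 0.14 with the ribosomal RNA share and 0.11 with the mitochondrial share.

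The genes most like Nanog were Ticrr, a factor for the start of DNA replication, with a rho of 0.73 (lanes 0.68 to 0.75), and Kit, the stem cell factor receptor, with 0.70 (lanes 0.62 to 0.79). Ticrr ran from 2.07 to 969 with a median of 254, and Kit from 0 to 413 with a median of 44.9. In 1 of its 7 rows Ticrr shares 30 of the 31-base words of Nanog. The other 6 rows, with the rest of its level, gave a rho of 0.72, and none of the next 9 genes shares such a word. Then came Nfatc2ip (0.68), Tfcp2l1 (0.67), the histone acetyltransferase Kat6b (0.66), Fbrsl1 (0.65), the autophagy receptor Calcoco2 (0.64), Tbx3 (0.64), Tet2 (0.63) and Rbbp5, a subunit of histone H3 lysine 4 methyltransferases (0.63). Tfcp2l1 ran from 0 to 2240 with a median of 446. Tbx3 ran from 0 to 496 with a median of 87.0. Over the other 386 cells, with Pou5f1 at or above 92.0, these 10 values lay between 0.55 for Tet2 and 0.67 for Kit. Agreement held across alleles too: the mean rho of 1 gene's 129 values with the other's CAST values was 0.59 for Ticrr, 0.59 for Kit and 0.62 for Tfcp2l1.

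The gene most opposed to Nanog was Pdlim7, a PDZ and LIM protein of the actin cytoskeleton, with a rho of -0.63 (lanes -0.66 to -0.57), followed by Pxdn, a peroxidase of the basement membrane, with -0.59. Pdlim7 ran from 2.32 to 501 with a median of 51.7, and Pxdn from 0 to 671 with a median of 53.2. Then came the calpain subunit Capn2 (-0.58), the adhesion receptor Adgrl2 (-0.56), Skil, a repressor in the TGF-beta pathway (-0.53), Pea15a (-0.52), the focal adhesion protein Zyx (-0.52), Carhsp1 (-0.51) and the integrin Itga3 (-0.51). Over those 386 cells these 9 values lay between -0.56 for Pdlim7 and -0.42 for Carhsp1. Actb, the cytoplasmic actin, had -0.32 with all cells and -0.24 without those 33.

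**Figure D4:**
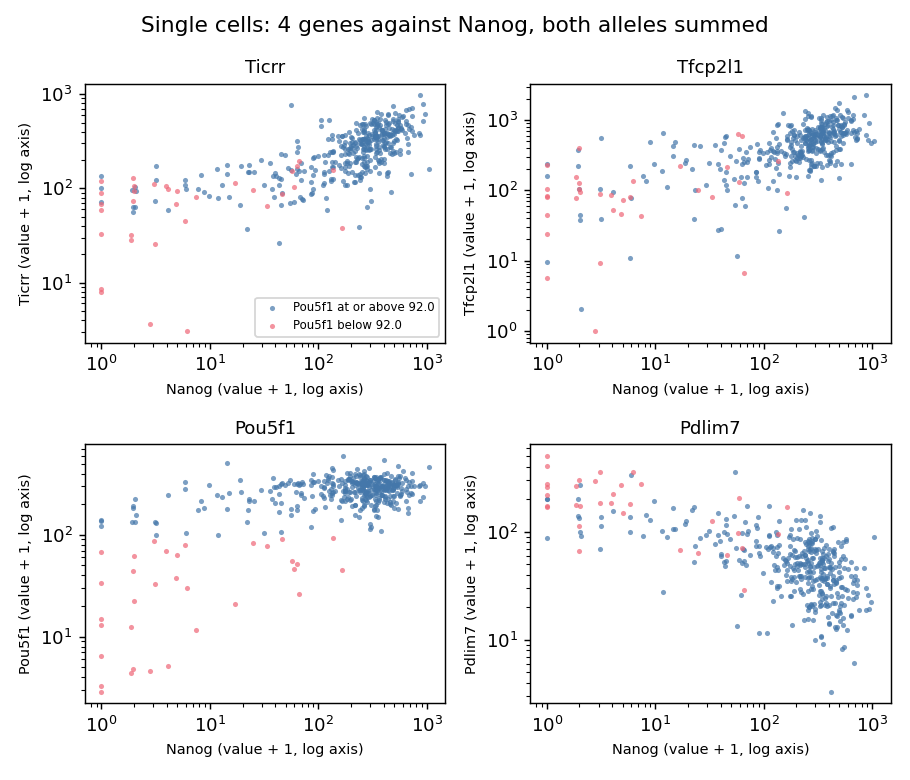
Level of Ticrr, Tfcp2l1, Pou5f1 and Pdlim7 (y axes) against Nanog (x axes) in 419 cells, both alleles summed, as value + 1 in scaled authors' units on log axes. Ticrr and Tfcp2l1 rise along the Nanog axis (rho 0.73 and 0.67), Pdlim7 falls (rho -0.63), and the red points are the 33 cells with Pou5f1 below 92.0.

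Naive pluripotency genes followed Nanog most closely of the lists examined. Of 17 measured, 14 were higher and 0 lower, beside 14.3% and 11.3% of all genes tested, with a median rho of 0.57 against 0.02. Over genes averaging 100 or more the shares were 31.2% and 11%. The counts were again 14 and 0, with a median of 0.47, without the 33 cells low in Pou5f1, where 7.57% of all genes were higher. The share of genes averaging 100 or more was not computed there. Besides Tfcp2l1, Tbx3 and Tet2 these were Prdm14 (0.65), which represses lineage and methylation genes, Zfp42 (0.61), Esrrb (0.60), Klf4 (0.59), Tcl1 (0.57), Nr5a2 (0.57), Klf2 (0.46), Mybl2 (0.43), Dppa5a (0.40), Fbxo15 (0.38) and Klf5 (0.34). Prdm14 was seen in 69.0% of cells, with a median of 5.17 and a highest value of 159. Esrrb ran from 0 to 1306 with a median of 539. The members inside the limits were Dppa3 (0.18), Tfap2c (0.11) and Gbx2 (0.07), which had a Pearson r of log2(value + 1) of 0.26.

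Core pluripotency genes followed Nanog less closely. Of 12 measured, 8 were higher and 0 lower, beside 14.3% and 11.3% of all genes, or 31.2% and 11% of genes averaging 100 or more, with a median of 0.33. They were led by the corepressor Trim28 (0.54), Fgf4 (0.48), a growth factor that drives exit from the naive state, Sox2 (0.47) and Sall4 (0.44). The value of Pou5f1 was 0.35. It ran from 1.88 to 591 with a median of 276 and quartiles of 214 and 324. Without the 33 cells defined by low Pou5f1 its rho was 0.18, within the limits. The list then had 5 members higher and 1 lower, beside 7.57% and 5.91% of all genes, with a median of 0.18. The member then lower was L1td1, an RNA-binding protein, at -0.21 against 0.01 with all cells. Tdgf1, a Nodal co-receptor, went from 0.28 to 0.11. Lin28a had -0.07 with all cells and -0.13 without the 33. The measure mattered for these genes: Pearson r of log2(value + 1), which gives weight to the lowest cells, was 0.65 for Pou5f1, 0.64 for Tdgf1 and 0.45 for L1td1 over all cells.

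Proteins reported to bind Nanog were also examined at the RNA level. Of 21 partners, 13 were higher and 2 lower, with a median of 0.26. The shares were 14.3% and 11.3% of all genes, or 31.2% and 11% of genes averaging 100 or more. Without the 33 cells 10 partners were higher and 2 lower, beside 7.57% and 5.91% of all genes. Over the 16 partners that are in neither pluripotency list, 8 were higher and 2 lower with all cells, with a median of 0.19. The highest of these were Wdr5, a subunit of histone H3 lysine 4 methyltransferases (0.59), the neuronal-gene repressor Rest (0.42) and the telomere-associated factor Rif1 (0.41). Members of the NuRD deacetylase complex lay on both sides: Hdac2 0.30, Hdac1 0.26, Gatad2b 0.20, Mta2 0.18, Gatad2a -0.18 and Mta1 -0.23 (-0.17 by Pearson r of log2 values). The lowest partner was Zfp609 (-0.28).

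Genes of the formative and primed states were split. Of 17 measured, 3 were higher, a share near the 14.3% of all genes, and 5 lower, beside 11.3%, with a median of -0.07. Without the 33 cells 2 were higher and 7 lower, beside 7.57% and 5.91% of all genes. With all cells the higher genes were Foxd3 (0.29), Zic5 (0.26) and Zic2 (0.25). The lower genes were Sox11 (-0.32), the epithelial factor Grhl2 (-0.28), the carbonic anhydrase Car2 (-0.28), Pou3f1, also called Oct6 (-0.24), and Sox4 (-0.24). Otx2 was at 0.13, and Fgf5 was too low to be tested. The methyltransferases Dnmt3a (-0.12) and Dnmt3b (-0.09) and the cofactor Dnmt3l (-0.02) lay within the limits with all cells and at -0.23, -0.24 and -0.21 without the 33.

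**Figure D5:**
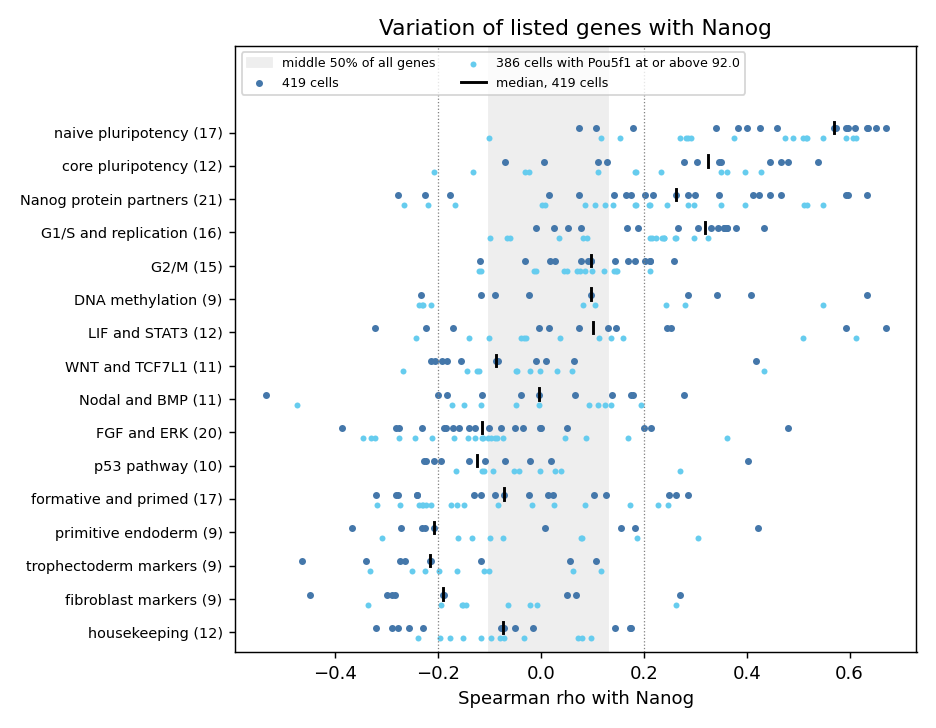
Spearman rho with Nanog (x axis) of the measured members of 16 gene lists (y axis, number measured in brackets), over 419 cells (dark, with the median as a bar) and over the 386 cells with Pou5f1 at or above 92.0 (light). Naive pluripotency genes lie farthest to the right (median 0.57), and the grey band marks the middle 50% of all genes, from -0.10 to 0.13.

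Other genes for DNA methylation gave mixed values. Of 9 measured, 4 were higher and 1 lower with all cells, and 3 and 4 without the 33. With all cells the shares were 14.3% and 11.3% of all genes, or 31.2% and 11% of genes averaging 100 or more. Without the 33 cells they were 7.57% and 5.91% of all genes. Tet2 was highest at 0.63, followed by Zfp57, which protects imprints, at 0.41, Uhrf1 at 0.34 and Tet1 at 0.29. Dnmt1, the maintenance enzyme, was at 0.10, and Tdg, a glycosylase that removes oxidised methylcytosine, was at -0.23.

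Signalling genes showed no common direction. In the LIF pathway 4 of 12 were higher and 2 lower: Tfcp2l1, Klf4, the receptor Lifr (0.25) and Stat3 (0.25) against the kinase Jak1 (-0.22) and Junb (-0.32). The shares were 14.3% and 11.3% of all genes, or 31.2% and 11% of genes averaging 100 or more. The feedback inhibitor Socs3 was at 0.15. Without the 33 cells 2 were higher and 1 lower, beside 7.57% and 5.91% of all genes. In the FGF and ERK pathway 3 of 20 were higher, a share like the 14.3% of all genes, and 4 lower, beside 11.3%, with a median of -0.11. The ligand Fgf4 (0.48), the factor Etv5 (0.21) and the adaptor Grb2 (0.20) were on the higher side. The ERK phosphatases Dusp5 (-0.39), Dusp6 (-0.28) and Dusp4 (-0.27), which ERK activity induces, and the receptor Fgfr2 (-0.23) were on the lower side. Without the 33 cells the counts were 1 and 6, beside 7.57% and 5.91% of all genes, and Etv5 was at 0.05. By Pearson r of log2(value + 1) over all cells Etv5 was at 0.51 and Dusp6 at -0.11, inside the limits.

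For the Nodal and BMP, WNT and p53 lists, the shares of all genes were 14.3% higher and 11.3% lower with all cells. Without the 33 cells they were 7.57% and 5.91%. Of 11 Nodal and BMP genes, Tdgf1 was higher and Skil lower, and the others, including Nodal at -0.004, lay within the limits. Skil alone passed without the 33 cells (-0.47). Of 11 WNT genes, Tcf7l1, a repressor of pluripotency genes and of Nanog, was higher at 0.42 (0.43 without the 33 cells). The receptors Lrp6 (-0.21) and Fzd7 (-0.21) were lower, and at -0.12 and -0.27 without those cells. Fzd7 was at -0.09 by Pearson r of log2(value + 1). Of 10 p53 pathway genes Trp53 was higher at 0.40, and the p53 targets Ccng1 (-0.23), Phlda3 (-0.22) and Mdm2 (-0.21) were lower. Without the 33 cells 1 member was higher and 0 lower.

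Genes of DNA replication ran with Nanog although all cells were taken in G1. Of 16 G1/S genes, 10 were higher and 0 lower, with a median of 0.32, beside 31.2% and 11% of genes averaging 100 or more. The counts were also 10 and 0 without the 33 cells (median 0.22), where 7.57% of all genes were higher and the share of genes averaging 100 or more was not computed. They included 6 subunits of the MCM helicase, from Mcm3 at 0.43 to Mcm4 at 0.31, the licensing factor Cdt1 (0.36) and Rrm2 (0.27). The cyclins Ccne1 (0.08) and Ccne2 (-0.01) lay within the limits. Of 15 G2/M genes, 4 were higher and 0 lower with all cells and 1 and 0 without the 33, beside 14.3% and 7.57% of all genes higher in the same sets of cells. Ube2c was highest at 0.26, and Mki67 was at -0.12. Of 12 housekeeping genes 0 were higher and 5 lower, beside 14.3% and 11.3% of all genes. Without the 33 cells 1 was lower, beside 5.91% of all genes.

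Markers of other cell types were in part lower with Nanog, in part within the limits and in part too low to be tested. For the counts below, 14.3% of all genes were higher and 11.3% lower with all cells. Without the 33 cells these shares were 7.57% and 5.91%. Of 9 measured trophectoderm markers 0 were higher and 6 lower, among them Krt19 (-0.46) and Krt18 (-0.34), and 3 were lower without the 33 cells, where Krt19 was at -0.33 and Krt18 at -0.20. Of 9 fibroblast markers 1 was higher, Fn1 (0.27), and 4 lower, led by Tagln (-0.45), with 1 and 1 without the 33 cells. Of 16 primitive endoderm genes 9 were measured: Lama1 was higher (0.42) and 5 were lower, led by the receptor Lrp2 (-0.37), with 1 and 1 without the 33 cells. Gata6, Gata4, Sox17, Pdgfra, Foxa2, Cubn and Amn were below the level filter, so the factors that define this lineage could not be ranked. Of 5 neural markers Tubb3 was higher (0.21) and Nes lower (-0.30), also without the 33 cells (0.24 and -0.22). The 2 measured mesendoderm markers, T (0.01) and Eomes (-0.12), lay within the limits, and of 8 markers of the two-cell embryo only Eif1a was measured (0.25, and 0.17 without the 33 cells, inside the limits). The part of other cell types in these values was not tested beyond leaving out the 33 cells.

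Near the gene, 40 annotated genes lie within 500 kb of Nanog, and 11 of them passed the level filter. Gdf3, a TGF-beta family ligand 97.4 kb upstream, was the highest at 0.35, and the glucose transporter Slc2a3, 13.2 kb downstream, was at 0.23. Like Ticrr, Slc2a3 shares sequence words with Nanog, 27 by the same count, and its rho without the rows that hold them was not tested. Foxj2, 105 kb downstream, was lower at -0.22. The others lay within the limits: Mfap5 0.19, Dppa3 0.18, the Polycomb subunit Phc1 0.13, Necap1 0.02, Apobec1 0.01, M6pr -0.01, Gm8430 -0.02 and Rimklb -0.14. Without the 33 cells low in Pou5f1 Slc2a3 was at 0.28, Gdf3 at 0.24, Rimklb at -0.203 and Foxj2 at -0.07, and the other 7 lay within the limits. With all cells 2 of the 11 were thus higher and 1 lower, beside 14.3% and 11.3% of all genes tested. Without the 33 cells the counts were again 2 and 1, beside 7.57% and 5.91%, with Rimklb in place of Foxj2 as the lower gene.

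To see whether neighbours vary with the Nanog allele on their own chromosome, rho within the same allele was set against rho across alleles. The difference had a median of 0.003 over the 6 neighbours with both alleles measured, and the SD of this median over lanes was 0.0211. For single genes, 7070 of them on other autosomes, the middle 95% lay between -0.05 and 0.05. Slc2a3, which was read mostly from 129 (75.4%), had the largest difference of the 6, at 0.04, inside that range of single genes. Whether the sequence words that Slc2a3 shares with Nanog add to this difference was not tested. The median over those other autosomes was 7.18e-06, and over 334 genes elsewhere on chromosome 6 it was 0.009. The chromosome thus had a slightly higher median than the others, and 2 cells read chromosome 6 mostly from 1 allele. Without those 2 cells the median of the 6 neighbours was -0.002, and without the 33 cells low in Pou5f1 it was -0.0002. The 6 neighbours are too few to set against these genes.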

How the data were processed

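The authors deposited 1 table per allele with whole numbers for 117762 transcripts in 419 cells. These deposited values were treated as a score, since they are allele values scaled to similar cell totals and not raw counts, so the depth in reads is unknown. Totals over both alleles ran from 698363 to 1477656 (median 925852, CV 6.65%), and 95 index pairs were reused over lanes. Per the submitters' processing notes, Bowtie 1.1.2 and mm10 were used. Which tool split reads by allele was not given in the sources used here.

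Rows were joined to GENCODE vM21 (116824 matched) and summed per gene, and each cell was scaled to the mean total. Genes entered with a pooled value of at least 1000 and a value in at least 10% of cells. Allele measures needed a mean of at least 5 per allele, a 129 share of 10% to 90%, and squared allele differences summing to at least 0.5 of the total. Intrinsic variation is the mean squared difference of mean-scaled alleles divided by 2, and shared variation their mean product minus 1.

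Named genes are the 10 highest and 10 lowest by rho with a mean of at least 20, a value in at least 50% of cells and 1 sign in all lanes and with each Nanog allele, without predicted symbols. The 2 highest and 2 lowest members of each list, a fixed set of pluripotency genes and the neighbours were added. A gene that this rule picks is not reported here. Other list members, Peg10 and the marker genes of the 33 cells were picked after their values were seen. The lists and the gene itself were chosen with earlier results of these data known. The calculations were tested on simulated data and used Python 3.11.15, numpy 2.4.6, pandas 2.3.3, scipy 1.17.1 and matplotlib 3.10.9. Alternatives changed the Nanog rows, scaling, measure, filters, limits, lanes and cells. No doublet caller was run.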

Additional observations from a re-analysis of the deposited data

How the results depend on the processing

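With the most abundant Nanog row alone the level was 157, the 129 share 46.9%, the intrinsic variation 0.269 and the allele rho 0.70. Counting only values of at least 5 as seen gave 5.19% of cells with a single allele. Pearson r of log2(value + 1) gave 0.87 between alleles and 2673 genes higher with Nanog. A mean of at least 20 left 1319 higher and 723 lower genes. A limit of 0.15 gave 2628 higher and 2126 lower, and a limit of 0.3 gave 623 higher and 432 lower. Without the 33 cells low in Pou5f1, an alternative chosen after the data were seen, the level was 283, cells with a single allele 5.48%, the shared variation 0.404, the allele rho 0.74, and 934 genes were higher and 730 lower. The cause of these shifts was not tested, except that fewer genes or a changed limit alters the counts directly. Leaving out each lane gave levels of 253 to 267, 129 shares of 50.3% to 51.1%, 1725 to 1836 higher and 1364 to 1533 lower genes, and neighbour differences of -0.008 to 0.012. Over the named genes and all alternatives, 1057 alternative values moved by less than the spread over lanes and 101 by more. No paired analysis was possible because there is only 1 group. Unknown read depth limits all allele splits at low values.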
